A study of Mus musculus with 6 samples.

Results

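A set of 35 genes that act at the entry into S phase and in DNA replication was followed through mouse embryonic stem (ES) cells with an intact or altered Thap1 gene. The members were taken by gene symbol from a list that spans nucleotide supply, G1/S control, origin licensing, the replication fork and histone mRNA handling, and a member was kept when its value reached 10 in at least 2 of the 6 libraries. All 35 of the 35 listed genes were found among the 19713 genes of the table and all 35 passed that filter, as did 15287 genes in all.

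Bulk RNA was sequenced from ES cells of C57Bl/6 blastocysts in 3 genotypes, each represented by 2 libraries that carry the replicate numbers 1 and 2. WT cells carried unaltered Thap1, and C54Y cells were homozygous for a missense change in THAP1 (Thap1 C54Y/C54Y). KO cells, titled THAP1 -/- in the labels, carried the Thap1 ΔExon2 allele, a deletion of exon 2. All 3 genotypes grew on irradiated mouse embryonic fibroblast feeders over gelatin, in medium with 15% fetal calf serum and LIF at 1000 units/ml, so that each library can hold some feeder RNA. The labels do not say whether libraries of a genotype came from separate cultures or clones, or what the replicate number marks, so p-values measure only the spread between these samples.

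Before a cell divides, its origins of replication are licensed in G1 by loading of the MCM2-7 helicase, a ring of related subunits, through the origin recognition complex, CDC6 and CDT1. Cyclin E with CDK2, under the control of E2F transcription factors, then starts S phase; CDC45 and the GINS complex join the helicase, and polymerases with their clamp and clamp loader copy the DNA from dNTPs that ribonucleotide reductase helps to supply. ES cells are known for a short G1 and a high share of cells in S phase. THAP1 is a zinc finger transcription factor mutated in a form of inherited dystonia, and RRM1, the large subunit of ribonucleotide reductase, is known as its target from work on human endothelial cells; for that reason Rrm1 is described beside the other members.

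Promoters of Rrm1 and of 3 members that rose in KO cells are shown because their letters differ in the motifs they hold: Rrm1 holds the core known for THAP1 binding, Mcm5 and Mcm6 hold E2F motifs, and Rpa2 holds a THAP1 core without an E2F motif. Each sequence is the RefSeq promoter on GRCm38.p6, from 250 bases before the start of transcription to 50 bases after it, 5′ to 3′ on the gene's strand. Capitals mark matches on either strand to the THAP1 core TNNNGGCA or to an E2F motif, spelled TTTCCCGC, TTTCGCGC, TTTGCCGC or TTTGGCGC. Rrm1 lies at chr7:102441445-102441744 on the plus strand, Mcm5 at chr8:75109259-75109558 on the plus strand, Mcm6 at chr1:128359656-128359955 on the minus strand and Rpa2 at chr4:132768110-132768409 on the plus strand.
Rrm1: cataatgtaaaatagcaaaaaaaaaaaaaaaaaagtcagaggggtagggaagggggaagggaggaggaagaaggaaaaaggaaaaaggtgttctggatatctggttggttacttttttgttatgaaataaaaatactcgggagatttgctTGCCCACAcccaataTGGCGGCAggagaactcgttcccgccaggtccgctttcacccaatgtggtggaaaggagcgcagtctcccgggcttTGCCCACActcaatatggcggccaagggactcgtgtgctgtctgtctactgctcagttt
Mcm5: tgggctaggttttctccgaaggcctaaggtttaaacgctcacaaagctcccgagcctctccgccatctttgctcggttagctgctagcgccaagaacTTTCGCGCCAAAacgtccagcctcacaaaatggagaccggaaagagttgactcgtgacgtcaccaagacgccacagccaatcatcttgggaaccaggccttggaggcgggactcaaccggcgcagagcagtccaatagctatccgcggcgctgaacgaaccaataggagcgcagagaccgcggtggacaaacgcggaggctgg
Mcm6: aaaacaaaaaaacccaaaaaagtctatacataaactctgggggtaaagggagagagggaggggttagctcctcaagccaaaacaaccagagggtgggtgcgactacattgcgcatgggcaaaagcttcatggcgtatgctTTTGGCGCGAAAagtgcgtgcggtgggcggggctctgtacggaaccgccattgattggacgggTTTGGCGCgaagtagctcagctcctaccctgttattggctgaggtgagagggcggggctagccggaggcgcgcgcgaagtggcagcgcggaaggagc
Rpa2: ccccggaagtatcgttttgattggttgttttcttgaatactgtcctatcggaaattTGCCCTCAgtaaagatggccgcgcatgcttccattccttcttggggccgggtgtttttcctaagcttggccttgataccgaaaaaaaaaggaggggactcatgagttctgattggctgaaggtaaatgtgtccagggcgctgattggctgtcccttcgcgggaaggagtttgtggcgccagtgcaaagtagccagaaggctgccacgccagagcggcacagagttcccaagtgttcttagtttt

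The Rrm1 promoter held 3 THAP1 core matches, whose leftmost bases lie 100, 85 and 9 bases before the start, and no E2F match. Mcm5 held 2 E2F matches, at 153 and 149 bases before the start, which overlap on opposite strands, and Mcm6 held 3, at 110, 106 and 47 bases before it. The 1 match of Rpa2 to the THAP1 core lay 194 bases before the start. A promoter entry was matched for 29 of the 35 members; Ccne2, Gins1, Gins2, Gmnn, Mcm4 and Pole have none in the table. Over these 29 genes, 13 (44.8%) held an E2F motif in any of their promoters, against 2.61% of 27025 genes. The THAP1 core was held by 13 members (44.8%) and by 45.4% of all genes, and its short form GGGCA, which lies inside the core when the third N is G, by 17 members (58.6%) and 56.5% of all genes. A CCAAT box, spelled CCAAT, was held by 19 members (65.5%) and 41.1% of all genes. These are matches of letters on both strands, not measured binding.

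The 6 libraries held 31774656 to 46772996 reads in genes, of which 212891 to 279987 fell in the members. The largest source of variation was the replicate number: the first principal component (73.8% of the variance) parted replicate 1 from replicate 2, and the second (17.6%) ran from WT to KO with C54Y between them in both replicates. Deviations from the genotype mean ran together between libraries with the same replicate number (r = 0.907 for WT and C54Y, 0.869 for WT and KO, 0.895 for C54Y and KO, across 15287 genes that are not independent). Differences were therefore taken within a replicate number, with limma fitted to all 6 libraries on log2(value + 2) and the replicate number as a block. The residual SD of the members had a median of 0.132 with the block and 0.484 without it, on the log2 scale. Of 12 ES cell markers, all were detected in every library. Of 22 fibroblast markers of the feeders, 20 to 21 were detected in each library, with Lum at 0 in 5 libraries and Fap at 0 in 3. Thap1 itself had normalized counts of 433, 2253 and 1975 for WT, C54Y and KO of replicate 1 and of 701, 2533 and 1687 for those of replicate 2, higher in each mutant library than in either WT library. A count over the whole gene cannot check a missense change or the deletion of 1 exon.

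The members took a larger share of the reads in KO than in WT within each replicate number. In replicate 1 they took 0.529% of reads in WT, 0.599% in C54Y and 0.650% in KO, and in replicate 2 they took 0.658%, 0.690% and 0.735%. WT was lowest and KO highest both times, but the groups overlap across replicate numbers, since WT replicate 2 lies above KO replicate 1. The G2/M genes, a list of 25 mitotic genes, took 0.536%, 0.534% and 0.511% of reads in WT, C54Y and KO of replicate 1, and 0.373%, 0.346% and 0.306% in replicate 2. Their summed normalized count was 167409, 169792 and 180472 in replicate 1 and 155416, 142663 and 137644 in replicate 2, so KO was highest in the former and lowest in the latter, while by share of reads KO was lowest both times. In bulk RNA, more cells in S phase and more RNA per cell cannot be told apart, nor can fewer cells of a type and less RNA per cell.

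In KO cells 7 of the 35 members (20.0%) rose and 0 fell at an adjusted p under 0.05 (limma, Benjamini-Hochberg over all genes tested), against 8.90% of all genes tested called up and 7.41% called down. The 7 were the helicase subunits Mcm2, Mcm3, Mcm5 and Mcm6, the single-strand binding subunit Rpa2, the DNA ligase Lig1 and the thymidine kinase Tk1. At an unadjusted p under 0.05 there were 19 of 35 members, all higher in KO. Over all 15287 genes tested 4758 passed that threshold, in either direction. edgeR called 3 members up (Lig1, Mcm5 and Rpa2) and 0 down, beside 1085 up and 1342 down over all 15287 genes tested. DESeq2 called 6 members up and 0 down, which were 5 of the 7 and Pola1, beside 1360 up and 1162 down over all genes. Mcm2 and Mcm3 were not called by DESeq2 (adjusted p = 0.0606 and 0.111), and Mcm2, Mcm3, Mcm6 and Tk1 were not called by edgeR (adjusted p = 0.0715, 0.111, 0.0682 and 0.0759), by limma with TMM factors (0.0662, 0.101, 0.0653 and 0.0719) or with only the KO and WT libraries in the fit (0.0798, 0.146, 0.0626 and 0.114). With no filter on low values Mcm3 and Tk1 were not called (adjusted p = 0.0596 and 0.0522). Without the replicate block 0 members were called, and 0 of all genes tested, with 0 members at an unadjusted p under 0.05. Leaving out a library changed the count of members called, and the calls over all genes changed as well. The median difference of the members was 0.256 without WT replicate 1 and 0.419 without WT replicate 2, beside -0.0101 and 0.0866 over all genes. It was 0.266 without KO replicate 1 and 0.406 without KO replicate 2, beside -0.0238 and 0.106. Without either C54Y library it stayed at 0.356, beside 0.0284. Over the 16 alternative analyses the adjusted p of each of the 7 genes was highest, at 1, without the block, and its lowest value was 0.000726 for Mcm5, 4.78e-05 for Rpa2, 0.00168 for Lig1, 0.00775 for Mcm2, 0.000264 for Mcm6, 0.00273 for Tk1 and 0.0196 for Mcm3.

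The median difference of the members between KO and WT was 0.36 on the log2 scale (0.42 in replicate 1 and 0.23 in replicate 2), beside 0.03 (0.12 and -0.02) over all genes tested. In replicate 1 the value was higher in KO for 34 of 35 members (97.1%, against 59.0% of all genes) and in replicate 2 for 25 (71.4%, against 47.6%). Counted over both replicate numbers, 25 members (71.4%) were higher in KO each time, against 36.1% of all genes, 1 was lower each time and 9 split. With both KO libraries above both WT libraries there were 5 of 35 members, Rrm1, Cdc6, Cdk2, E2f2 and Orc1, and none the reverse, against 13.6% of all genes above and 13.6% below. The share of members above thus lay near that of all genes.

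**Figure D1:**
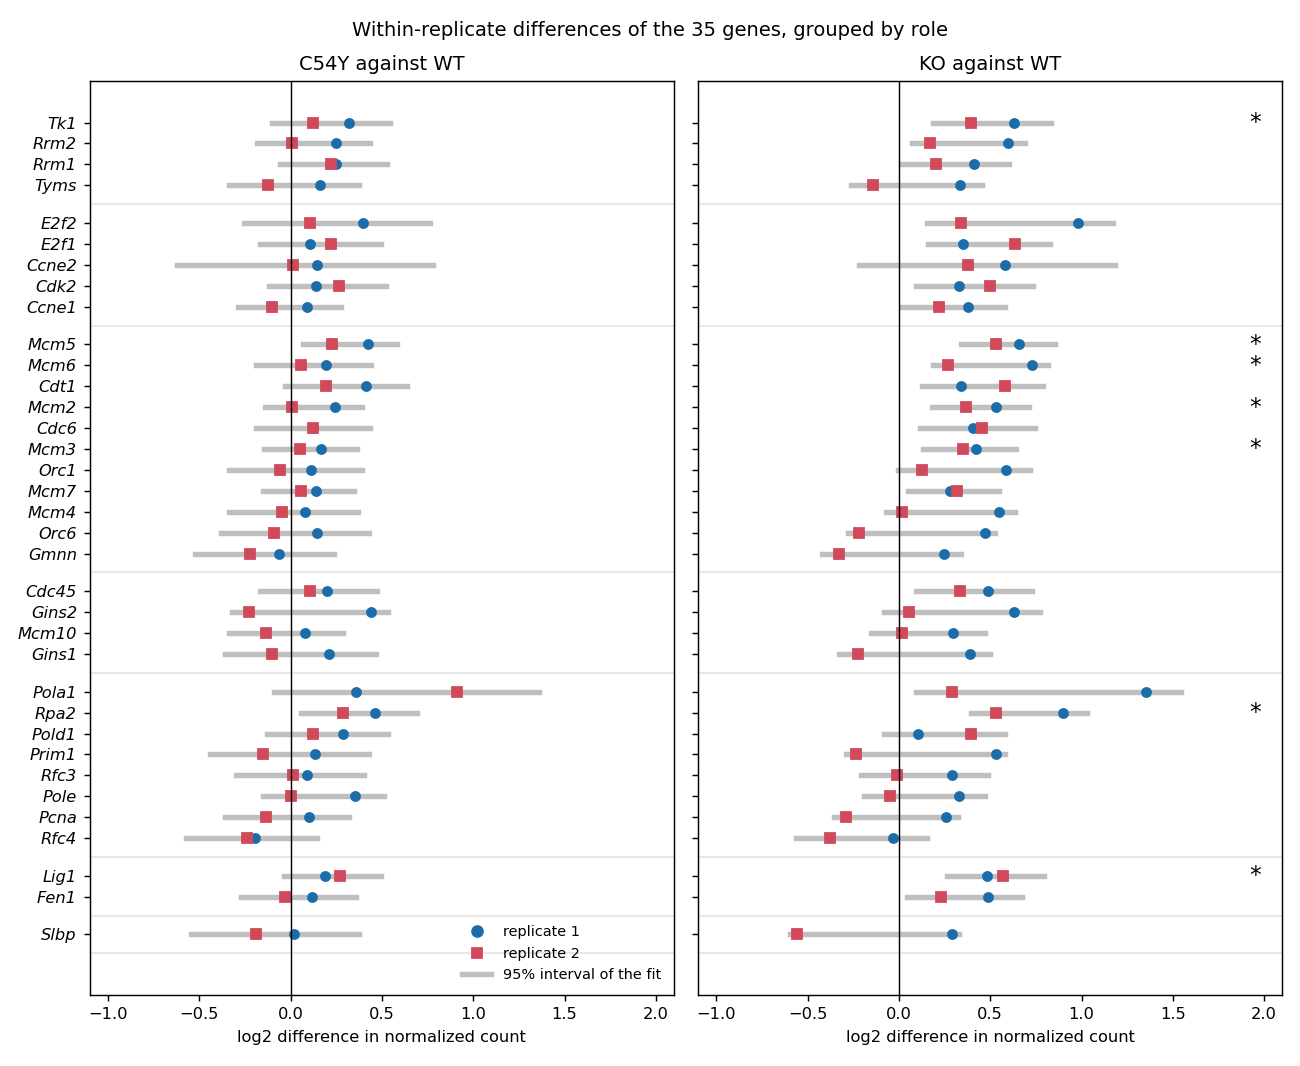
Log2 difference from WT of each of the 35 members within replicate 1 (blue circles) and replicate 2 (red squares), for C54Y (left) and KO (right); grey bars are the 95% confidence interval of the limma difference, rows are grouped by role, and asterisks mark an adjusted p under 0.05. In KO, 34 of 35 replicate 1 points and 25 of 35 replicate 2 points lie to the right of 0, and 7 genes carry an asterisk; in C54Y no gene does.

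Among the genes of nucleotide supply, Rrm1 had normalized counts of 6491, 7719 and 8631 in WT, C54Y and KO of replicate 1 and of 6919, 8057 and 7969 in replicate 2. Both libraries of each mutant lay above both WT libraries, and the mutants overlapped each other. The difference of KO from WT was 0.31 ± 0.13 (log2, SE), with a 95% interval of 0.0124 to 0.602, 0.41 in replicate 1 and 0.20 in replicate 2, and did not pass the test (adjusted p = 0.146). It was called in 2 of 16 alternative analyses, without KO replicate 2 (adjusted p = 0.0236) and after removal of a GC trend (adjusted p = 0.0231), and its adjusted p ran from 0.0231 to 1 over the 16. C54Y differed from WT by 0.23 ± 0.13 (adjusted p = 0.543, 95% interval -0.06 to 0.53) and KO from C54Y by 0.07 ± 0.13 (adjusted p = 0.840, 95% interval -0.222 to 0.368). Rrm1 was the most even of the dNTP genes between replicate numbers, with replicate 1 at 0.938 times replicate 2 in WT.

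Tk1, which phosphorylates salvaged thymidine, had 1478, 1843 and 2284 in WT, C54Y and KO of replicate 1 and 4266, 4648 and 5608 in replicate 2. The order was the same in both replicate numbers, and every replicate 2 library lay above every replicate 1 library. Tk1 rose in KO by 0.51 ± 0.14 (1.43-fold, adjusted p = 0.0419); the call was lost without WT replicate 1 (adjusted p = 0.341), C54Y replicate 1 (0.104), WT replicate 2 (0.126) or C54Y replicate 2 (0.126). Rrm2, the small subunit of ribonucleotide reductase, differed by 0.38 (adjusted p = 0.0911) and Tyms, thymidylate synthase, by 0.10 (adjusted p = 0.729), the latter with opposite signs in the replicates (0.33 and -0.14).

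In the G1/S control group none of 5 members passed the test in KO, though 4 of the 5 had an unadjusted p under 0.05 and each of the 5 was higher in KO in both replicate numbers (median 0.48). E2f2, an activating E2F factor, had 268, 354 and 532 normalized counts in WT, C54Y and KO of replicate 1 and 371, 399 and 470 in replicate 2. Both KO libraries lay above all C54Y and WT libraries. The difference between KO and WT was 0.66 ± 0.22 (adjusted p = 0.0797), with 0.98 in replicate 1 and 0.34 in replicate 2. E2f1 differed by 0.49 (adjusted p = 0.0522), Cdk2, the kinase of cyclin E, by 0.41 (adjusted p = 0.0789) and cyclin E1, Ccne1, by 0.30 (adjusted p = 0.137).

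Ccne2, cyclin E2, stood apart for its level. It had 181, 200 and 272 normalized counts in WT, C54Y and KO of replicate 1, from 242, 294 and 313 reads, and 10.3, 10.4 and 14.0 in replicate 2, from 8, 8 and 11 reads. Replicate 1 was 17.6, 19.2 and 19.4 times replicate 2 in the 3 genotypes, so the gap between replicate numbers far exceeded any between genotypes, and the replicate 2 values rest on few reads. KO differed from WT by 0.48 ± 0.31 (adjusted p = 0.331).

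Of the 11 origin licensing members, 4 rose in KO, and 7 had an unadjusted p under 0.05; 9 were higher in KO in both replicate numbers, with a median of 0.39. Mcm5 had 12026, 16152 and 18985 normalized counts in WT, C54Y and KO of replicate 1, and 22725, 26590 and 32881 in replicate 2. C54Y lay between WT and KO both times, and WT replicate 2 lay above KO replicate 1. Mcm5 rose in KO by 0.60 ± 0.11 (1.51-fold, adjusted p = 0.00982), by 0.66 in replicate 1 and 0.53 in replicate 2, and was called in 15 of 16 alternative analyses, all but that without the block.

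Mcm6 had 9221, 10547 and 15286 normalized counts in WT, C54Y and KO of replicate 1 and 16672, 17371 and 20113 in replicate 2. KO was highest both times, with C54Y close above WT. It rose in KO by 0.50 ± 0.14 (1.41-fold, adjusted p = 0.0412), with 0.73 and 0.27 in the replicates, and was called in 8 of 16 alternatives. Without a library the call was lost for WT replicate 1 (adjusted p = 0.266), C54Y replicate 1 (0.0528), KO replicate 1 (0.0758) and C54Y replicate 2 (0.0788).

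Mcm2 had 12281, 14550 and 17749 in WT, C54Y and KO of replicate 1 and 20945, 21069 and 26983 in replicate 2, and rose in KO by 0.45 ± 0.12 (1.36-fold, adjusted p = 0.0329). C54Y lay close above WT in replicate 2. Mcm3 had 12230, 13728 and 16415 in replicate 1 and 20680, 21473 and 26350 in replicate 2, in the same order, and rose by 0.39 ± 0.11 (1.31-fold, adjusted p = 0.0473). Of the fits that leave out a library, both genes lost the call without WT replicate 1 (adjusted p = 0.249 and 0.266), C54Y replicate 1 (0.0698 and 0.132), WT replicate 2 (0.0596 and 0.166) or C54Y replicate 2 (0.096 and 0.165). The other helicase subunits did not pass the test: Mcm7 differed by 0.30 (adjusted p = 0.0994) and Mcm4 by 0.28 (adjusted p = 0.255), with 0.55 in replicate 1 and 0.02 in replicate 2.

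Among the loading factors, Cdt1 differed between KO and WT by 0.46 (adjusted p = 0.0660), Cdc6 by 0.43 (adjusted p = 0.0675) and the origin recognition subunit Orc1 by 0.36 (adjusted p = 0.168), each higher in KO in both replicate numbers. Cdc6 was the most even of them, with 0.41 in replicate 1 and 0.45 in replicate 2. Gmnn, geminin, which holds CDT1 in check, had 2591, 2483 and 3072 normalized counts in WT, C54Y and KO of replicate 1 and 4756, 4074 and 3791 in replicate 2. KO was highest in replicate 1 and lowest in replicate 2, and the fitted difference from WT was -0.04 ± 0.17 (adjusted p = 0.901). Orc6 split in the same way (0.47 and -0.22). 

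**Figure D2:**
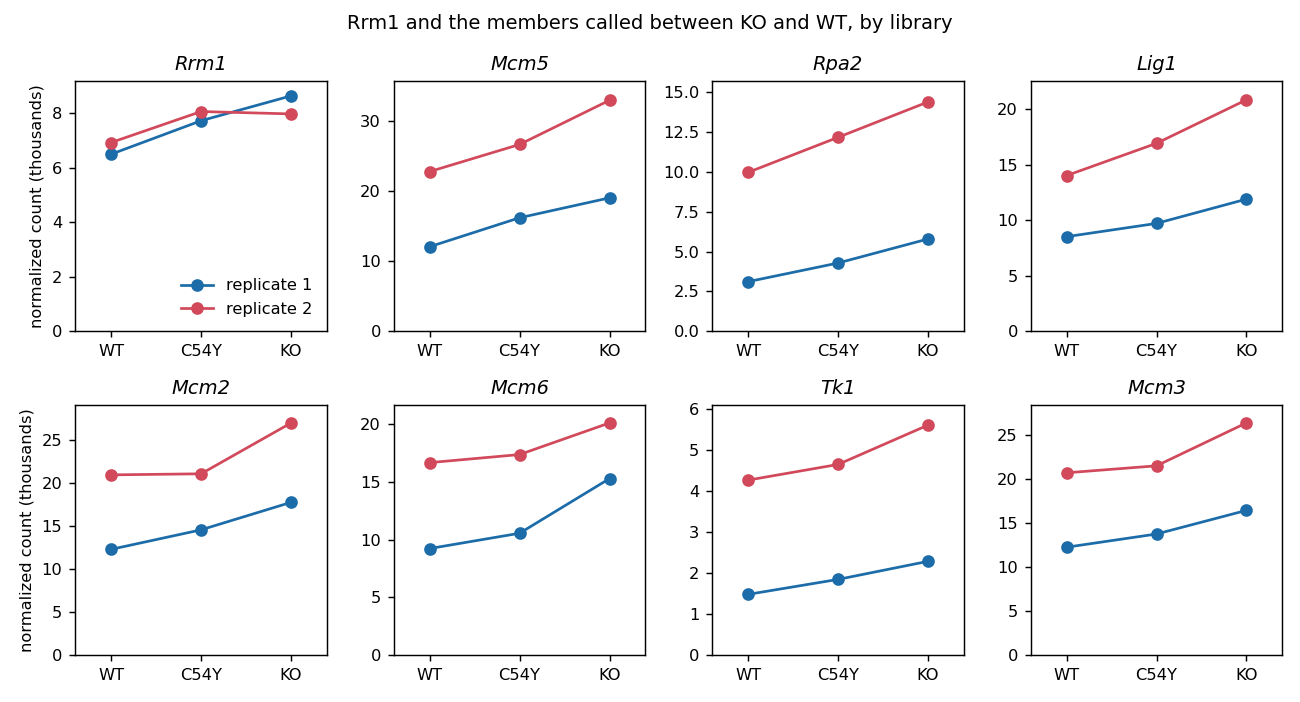
Normalized counts (in units of 1000, linear axes from 0) of Rrm1 and of the 7 members called between KO and WT, by genotype, with replicate 1 in blue and replicate 2 in red; each point is 1 library. All but Rrm1 run WT, C54Y, KO upward within both replicate numbers and lie higher in replicate 2, and the Rrm1 lines cross between C54Y and KO.

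Helicase activation held 4 members, none of which passed the test in KO (1 at an unadjusted p under 0.05); the median was 0.25, with 0.44 in replicate 1 and 0.04 in replicate 2. Cdc45, which joins the MCM ring at the fork, differed by 0.41 (adjusted p = 0.0812), with 0.49 and 0.33 in the replicates. The GINS subunits Gins2 and Gins1 differed by 0.34 and 0.08 (adjusted p = 0.253 and 0.797), and Mcm10 by 0.16 (adjusted p = 0.482). Gins2 shares 67.3% of its exon bases with Gse1 on the opposite strand, and the strand setting of the counting is not given in the sources used here, so its value is uncertain.

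Of the 8 polymerase, clamp and single-strand binding members, Rpa2 alone passed the test in KO; 2 had an unadjusted p under 0.05, and the median was 0.14 (0.31 in replicate 1 and -0.03 in replicate 2). Rpa2, a subunit of replication protein A, had 3111, 4282 and 5792 normalized counts in WT, C54Y and KO of replicate 1 and 9974, 12176 and 14398 in replicate 2. KO was highest and WT lowest in each replicate number, and all replicate 2 libraries lay above all replicate 1 libraries. Rpa2 rose by 0.71 ± 0.14 (1.64-fold, adjusted p = 0.0109), with 0.90 and 0.53 in the replicates; it was called in 14 of 16 alternatives, and not without WT replicate 1 (adjusted p = 0.0534).

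Pola1, the catalytic subunit of polymerase alpha and the one X-linked member, had 2632, 3371 and 6721 normalized counts in WT, C54Y and KO of replicate 1, and 167, 317 and 205 in replicate 2, from 130, 244 and 161 reads. KO was highest in replicate 1 and C54Y highest in replicate 2, while WT was lowest both times. Replicate 1 was 15.7, 10.6 and 32.8 times replicate 2 in WT, C54Y and KO. KO differed from WT by 0.82 ± 0.32 (adjusted p = 0.117), with 1.35 and 0.29 in the replicates; it was called by DESeq2, with only the KO and WT libraries in the fit, after removal of the GC trend, and without C54Y replicate 1, C54Y replicate 2 or KO replicate 2. C54Y differed from WT by 0.64 ± 0.32 (adjusted p = 0.479). Over 527 X-linked genes the median difference of KO from WT was 0.72 in replicate 1 and 0.40 in replicate 2, beside 0.11 and -0.03 for the other genes; its part in the Pola1 value was not tested.

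The remaining polymerase and clamp members did not pass. Pold1, the catalytic subunit of polymerase delta, differed by 0.25 (adjusted p = 0.289) and Pole, that of polymerase epsilon, by 0.14 (adjusted p = 0.565). The primase subunit Prim1 (0.53 and -0.23) and the clamp loader subunit Rfc3 (0.29 and -0.01) split between replicate 1 and replicate 2. Pcna, the sliding clamp, had 9780, 10473 and 11702 in WT, C54Y and KO of replicate 1 and 14110, 12840 and 11555 in replicate 2, which is an order that turns round between replicate numbers; its fitted difference was -0.01 ± 0.15 (adjusted p = 0.962, 95% interval -0.354 to 0.325). Rfc4, another clamp loader subunit, was the one member lower in KO in both replicate numbers, with 1640, 1433 and 1603 in replicate 1 and 2386, 2025 and 1839 in replicate 2, at -0.20 ± 0.16 (adjusted p = 0.423). Processed pseudogenes of Pcna and Tyms could share reads with them.

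Lig1, the ligase that seals Okazaki fragments, had 8507, 9700 and 11887 normalized counts in WT, C54Y and KO of replicate 1 and 14004, 16907 and 20825 in replicate 2. KO was highest and WT lowest both times, and WT replicate 2 lay above KO replicate 1. Lig1 rose in KO by 0.53 ± 0.12 (1.44-fold, adjusted p = 0.0180), with 0.48 and 0.57 in the replicates, and was called in 13 of 16 alternatives; without WT replicate 2 its adjusted p was 0.133 and without C54Y replicate 2 it was 0.0582. Fen1, the flap nuclease that trims the fragments before ligation, differed by 0.36 (adjusted p = 0.115), and shares 78.8% of its exon bases with the antisense gene Gm10143, so its value is uncertain. Slbp, which binds the stem-loop of histone mRNAs, had 2891, 2931 and 3541 in WT, C54Y and KO of replicate 1 and 2597, 2277 and 1760 in replicate 2, with KO highest in the former and lowest in the latter (-0.13 ± 0.20, adjusted p = 0.702).

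In C54Y cells 0 of the 35 members were called up and 0 down with limma, with edgeR and with DESeq2, against 0.962% of all genes called up and 0.399% called down with limma. At an unadjusted p under 0.05 there were 2 of 35 members, Mcm5 and Rpa2, beside 1884 of all 15287 genes tested. The median difference from WT was 0.11 (0.16 in replicate 1 and 0.01 in replicate 2), beside -0.00206 over all genes tested, and 21 members (60.0%) were higher in C54Y in both replicate numbers, against 33.5% of all genes. Both C54Y libraries lay above both WT libraries for 2 members, Rrm1 and Pole, against 9.30% of all genes. Mcm5 differed by 0.33 ± 0.11 (adjusted p = 0.261) and Rpa2 by 0.37 ± 0.14 (adjusted p = 0.308). Mcm5 and Rpa2 were called with only the WT and C54Y libraries in the fit (limma, adjusted p = 0.0258 and 0.0158). That fit called 1743 of all genes tested, where the main fit called 208. Over the 16 alternatives the difference ran from 0.245 to 0.407 for Mcm5 and from 0.239 to 0.509 for Rpa2, and the adjusted p ran up to 1 for both.

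Set against C54Y, KO had 0 members called up and 0 down with limma, edgeR and DESeq2, against 0.0458% and 0.144% of all genes with limma. At an unadjusted p under 0.05 there were 8 of 35 members, beside 2349 of all 15287 genes tested. The median difference was 0.24 (0.28 in replicate 1 and 0.23 in replicate 2), beside 0.03 over all genes. Both KO libraries lay above both C54Y libraries for 1 member, E2f2, against 8.64% of all genes. Mcm5 differed by 0.27 ± 0.11 (adjusted p = 0.306), Mcm2 by 0.32 ± 0.12 (adjusted p = 0.246) and Mcm6 by 0.37 ± 0.14 (adjusted p = 0.256). Over the 16 alternatives the difference of Mcm6 ran from 0.178 to 0.569. The values ran upward in the order WT, C54Y, KO for 30 of 35 members in replicate 1, against 34.0% of all genes, and for 17 in replicate 2, against 24.6%; they ran downward for 0 and 8, against 22.6% and 27.3%.

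Levels between members were compared per length, as RPKM computed from the recovered reads and the longest coding transcript. In WT the highest were Pcna at 215 ± 11.9 (SD, n = 2), Mcm7 at 187 ± 51.4, Rrm2 at 148 ± 24.5 and Mcm3 at 147 ± 24.5, and neighbours in that order lay within their spread. The helicase subunits differed in level: Mcm5 had 138 ± 33.6, Mcm2 133 ± 23.0, Mcm6 79.9 ± 17.04 and Mcm4 56.8 ± 17.7. Rrm1 had 46.8 ± 7.39, below its partner Rrm2 in every library. Lowest were Pola1 at 8.26 ± 10.6, E2f2 at 1.85 ± 0.0460 and Ccne2 at 1.00 ± 1.30, the first and last with an SD above the mean.

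Members also differed between replicate numbers. The median of replicate 2 minus replicate 1 was 0.74 in WT, 0.58 in C54Y and 0.40 in KO (log2), with 29, 28 and 23 of 35 members higher in replicate 2, while over all genes tested the medians were 0.00, -0.01 and 0.05. A difference above 2-fold was seen for 9, 7 and 9 members (25.7%, 20.0% and 25.7%), against 37.2%, 37.6% and 42.8% of all genes. Across the 35 members this difference ran with the GC content of the longest coding transcript (r = 0.60, 0.62 and 0.69 in WT, C54Y and KO), as it did across 13858 genes (0.56, 0.56 and 0.68). It also ran against the log length of that transcript, with r = -0.31, -0.31 and -0.25 across members. Across the 13858 genes r with length was -0.49, -0.51 and -0.45. These correlations are across genes of the same libraries and are descriptions.

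The difference of KO from WT ran with GC content in replicate 2 (r = 0.49, rho = 0.60, 35 members) and not in replicate 1 (r = -0.13, rho = -0.03). Across 13858 genes the signs were the same, with r = 0.17 and rho = 0.26 in replicate 2 and r = -0.14 and rho = -0.17 in replicate 1. With log transcript length, r across members was 0.35 in replicate 1 and 0.41 in replicate 2. Across the 13858 genes r with length was -0.07 and -0.09. Split at the median GC content of 49.37%, the 17 members above it had a median difference of 0.42 in replicate 1 and 0.37 in replicate 2, with 17 and 15 positive. The 17 members below it had 0.47 and 0.02, with 16 and 9 positive. Members rich in GC were higher in KO in both replicate numbers, and those poor in GC mainly in replicate 1. With the GC trend of each library removed, an analysis chosen after seeing the data, 18 members were called up, all 7 named above among them, and the median was 0.35. Calls rose over all genes too. That fit called 1960 of 13858 genes up and 1581 down, where the main fit called 1361 up and 1133 down of 15287.

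**Figure D3:**
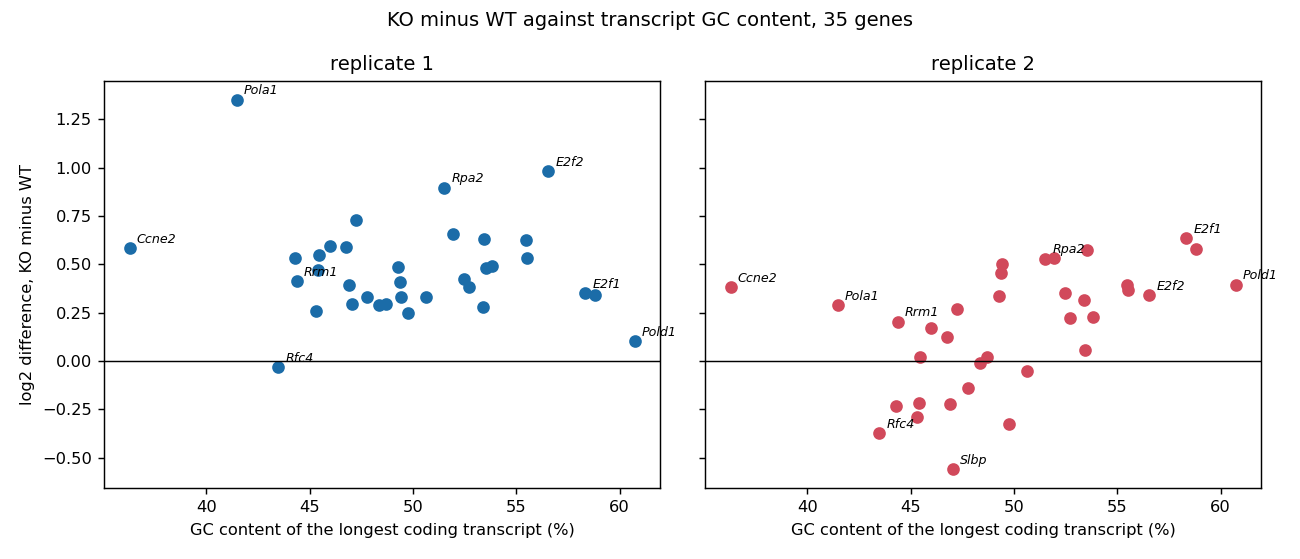
Log2 difference of KO from WT for each of the 35 members (1 point each) against the GC content of its longest coding transcript in percent, in replicate 1 (left) and replicate 2 (right), with selected genes named. In replicate 1 all points but Rfc4 lie above 0 at any GC content, and in replicate 2 the points below 0 lie mostly under 50% GC.

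The members were also split by the motifs of their promoters. The 13 members with an E2F motif had a median KO difference of 0.42 in replicate 1 and 0.35 in replicate 2, and the 16 without one 0.44 and 0.19. With the THAP1 core the medians were 0.48 and 0.34 for 13 members, and without it 0.39 and 0.25 for 16. Its short form GGGCA went the other way, with 0.41 and 0.27 for 17 members that hold it and 0.46 and 0.30 for 12 without. With a CCAAT box the medians were 0.49 and 0.27 for 19 members, and without it 0.37 and 0.39 for 10. These splits were given no test.

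The other genes of the pathway were followed by lists. Genes called in KO in either direction made up 15.4% of the other fork genes and 14.3% of the other G1/S control genes. The share was 12.5% in each of the other licensing and helicase genes and the other dNTP supply genes, and 20.0% in the chromatin assembly genes. These shares lie near the 16.3% of all genes tested (8.90% up and 7.41% down). In KO, 4 of 26 other fork genes rose and 0 fell: the polymerase epsilon subunit Pole4 (0.78, adjusted p = 0.0147), the clamp loader factor Chtf18 (0.59), the fork protection factor Tipin (0.59) and the replication protein A subunit Rpa1 (0.50); the median of the list was 0.25, with 0.40 and 0.03 in the replicates. Of 16 other licensing and helicase genes 2 rose, Ticrr, which brings CDC45 to the helicase (0.93 ± 0.13, adjusted p = 0.00303), and Mcmbp, a binding partner of the MCM proteins (0.73), with a median of -0.04 (0.32 and -0.37). Of 16 other dNTP supply genes 2 rose, Shmt1 of folate metabolism (0.52) and Umps of pyrimidine synthesis (0.48), with a median of 0.01.

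Among 21 other G1/S control genes 1 rose, the MYB family factor Mybl2 (0.51, adjusted p = 0.0141), and 2 fell, the repressive E2F factor E2f7 (-0.70, adjusted p = 0.0247) and the retinoblastoma gene Rb1 (-0.73, adjusted p = 0.0496), around a median of 0.04. Of 10 chromatin assembly genes tested, Uhrf1, which recruits maintenance DNA methylation, rose (0.59) and Ssrp1, a subunit of the FACT histone chaperone, fell (-0.48), around a median of 0.27. None of the 25 G2/M genes was called in KO with limma or DESeq2, and 1 was called down by edgeR. At an unadjusted p under 0.05 there were 4 of the 25, beside 4758 of all 15287 genes tested. The median of the G2/M genes was -0.05 (0.02 and -0.23), and 2 were higher and 8 lower in both replicate numbers. With TMM factors in limma 2 of them were called down and the median was -0.13. In C54Y none of these 6 lists had a called gene with limma or edgeR, and DESeq2 called 1 other G1/S control gene down. At an unadjusted p under 0.05 the lists held 5 genes in all, beside 1884 of all 15287 genes tested.

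**Figure D4:**
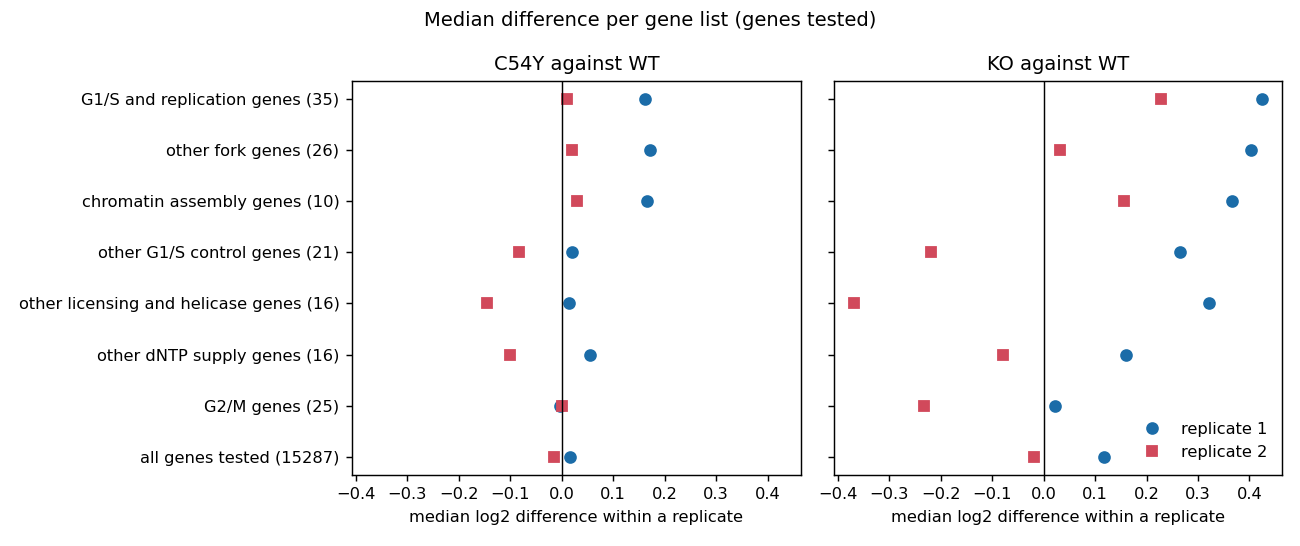
Median log2 difference from WT of each gene list within replicate 1 (blue circles) and replicate 2 (red squares), for C54Y (left) and KO (right); the number of genes tested stands beside each name. In KO the 35 members have medians of 0.42 and 0.23, the other fork genes 0.40 and 0.03, the G2/M genes 0.02 and -0.23, and all genes 0.12 and -0.02.

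Markers of cell identity moved alongside. The 12 ES cell markers summed to normalized counts of 196765, 224809 and 336611 in WT, C54Y and KO of replicate 1. In replicate 2 they summed to 421172, 468500 and 565337. With limma 6 of the 12 rose in KO and 0 fell (median 0.54, range -0.37 to 2.98), against 8.9% of all genes called up. Of the 12 markers, 8 were higher and 2 lower in KO in both replicate numbers. DESeq2 called 6 up and 0 down. TMM factors in limma and edgeR each gave 6 up and 1 down, and removal of the GC trend gave 7 up and 1 down. The 22 fibroblast markers summed to 17479, 13641 and 4193 in replicate 1 and to 38761, 45867 and 41828 in replicate 2, so that KO replicate 1 was lowest. Of the 20 fibroblast markers tested, 0 rose and 2 fell in KO, with a median of -1.38 in replicate 1 and -0.08 in replicate 2. They took 0.0119% to 0.111% of the reads of a library. The part of either marker list in the members' differences was not tested.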

How the data were processed

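Bulk RNA-seq of mouse ES cells gave 6 libraries, prepared with a TruSeq RNA kit after RNeasy extraction, per the labels. Per the submitters' processing notes the build was mm9, and the tools were TopHat2 2.1.0 and HTSeq beside CASAVA, Trimmomatic and DESeq2; annotation and strand setting are not given in the sources used here. The deposited values are a signal per gene and library, normalized counts in which reads were divided by 1 factor per library: 100% of values were whole multiples of 1 step per column (tolerance 1e-06), so whole reads were recovered.

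Genes with a value of 10 or more in at least 2 libraries were tested with limma 3.58.1 (robust trend, R 4.3.3) on log2(value + 2), with group and replicate number as terms over all 6 libraries, a two-sided test and Benjamini-Hochberg adjustment over 15287 genes at 0.05. The rule for this gene set compares within a replicate number, and same-numbered libraries deviated together in every pair, so the block is part of the main model. Fold changes on this scale understate changes of low genes. Fits were tested on simulated data. Alternatives were edgeR 4.0.16 and DESeq2 1.42.0 on recovered reads, TMM factors, other pseudocounts and filters, each library left out, and removal of the GC trend, chosen after seeing the data; GC content was known for 90.65% of genes tested.

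Values were given in full for Rrm1, Mcm5, every called member, and members over 0.5 with 1 direction in both replicates, and for further members chosen after their values were seen; of other lists, up to 4 called genes with the smallest p. The members and lists were chosen with earlier results of these data known. Coordinates and promoters come from RefSeq on GRCm38.p6, transcript lengths (for RPKM) from GENCODE M21, and no coordinates were taken from the mm9 alignment.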

Additional observations from a re-analysis of the deposited data

How the results depend on the processing

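The 7 members called up between KO and WT became 0 with no replicate block, 3 with TMM factors in limma, 3 with edgeR, 4 with only the 2 groups compared in the fit, and 18 with the GC trend removed; leaving out 1 library gave 2 to 20 up and 0 to 1 down. Between C54Y and WT, 0 became 3 with only the 2 groups compared and 0 to 4 without 1 library, with a median of -0.00634 to 0.188. Between KO and C54Y, leaving out a library gave 0 to 9 up and a median of 0.161 to 0.311, and the median was 0.173 with TMM factors and 0.192 with edgeR. Mcm6 reversed between C54Y and WT without WT replicate 1 (range without 1 library -0.0217 to 0.275), and Rrm1 between KO and C54Y without KO replicate 1 (-0.0233 to 0.169). The cause was not tested. Other pseudocounts, the stricter filter and DESeq2 left the count of members between KO and WT within 1.5 times. With TMM factors the median of all genes between KO and WT went from 0.03 to -0.06. Calls over all genes went from 1361 up and 1133 down to 1090 and 1343 with TMM factors. With the GC trend removed they were 1960 up and 1581 down, over 13858 genes.

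Over all genes, calls between KO and WT went from 2494 to 0 with no replicate block and to 1749 to 4861 without 1 library. Between C54Y and WT they went from 208 to 1743 with only the 2 groups, 479 with DESeq2, 450 with the GC trend removed and 69 to 1818 without 1 library. Between KO and C54Y they went from 29 to 677, 452, 340 and 7 to 2831 in the same order. The fit has 2 residual degrees of freedom with the block and 3 without. In replicate 2 the values of Ccne2 rest on 8, 8 and 11 reads in WT, C54Y and KO, and those of Pola1 on 130, 244 and 161.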
